A study of Mus musculus with 4 samples.

Results

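The transcripts described here are those that Aire raises in medullary thymic epithelial cells and that still carry the end of their 3'UTR there. Of 30794 RefSeq IDs counted, 8721 had an annotated alternative polyadenylation site (pA) inside the 3'UTR, and 58 of these, from 46 genes, met the rule. The rule asked for at least a 3-fold higher count in WT over Aire-KO cells in each of 2 experiments. It further asked for at least 20 WT reads in the upstream part of the last exon and a d3'UTR ratio above 0.75 in both WT libraries. The upstream part is the last coding exon joined to the 3'UTR up to the most proximal pA, and the d3'UTR is what lies beyond that pA. Noncoding RNAs make up 3 of the member IDs, of 2 genes (Miat and NR_001592). They have no coding exon and no 3'UTR, and the same names are kept for their parts before and after the pA. The d3'UTR ratio divides the read density of the d3'UTR (reads over length) by the read density of the upstream part. A ratio near 1 means that both regions were covered evenly, and a ratio near 0 that few reads reached past the proximal pA. Of 444 Aire-induced IDs with enough WT reads, 58 (13.1%) retained the d3'UTR by this rule, 199 (44.8%) had a WT ratio under 0.25 in both experiments and are called lacking, and 187 (42.1%) met neither condition. The figures label these 187 as between, but not all had intermediate ratios. In the first WT library 44 of them were over 0.75 and 7 under 0.25, and in the replicate WT library 16 were over and 48 under.

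The libraries came from mTEChi, which are thymic medullary epithelial cells carrying much MHC class II on their surface. They were sorted from C57BL/6 mice at 4 weeks of age by the absence of CD45 and Ly51 and by bright I-A/E staining. The Aire-KO group (genotype Aire-/-) had 1 library in a first experiment and 1 in a replicate experiment, and so had the WT group. Each library is a pool of 4 mice, and the labels give no other allele, agent or age that separates the groups. Where 2 values of a genotype are given below, the first experiment precedes the replicate experiment.

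Most mammalian genes can end their transcripts at more than 1 pA. The cleavage and polyadenylation machinery recognises a hexamer shortly before the cut, usually AATAAA in the DNA letters and less often ATTAAA, together with elements after it. Use of a proximal pA gives a short 3'UTR that lacks many binding sites for microRNAs and RNA-binding proteins, and use of the distal pA gives the long form. Aire is a transcriptional regulator through which mTEChi express genes otherwise restricted to peripheral tissues, so that developing thymocytes meet those self-antigens.

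Total counts were 168899954 and 242862323 in the Aire-KO libraries and 191404483 and 111077552 in the WT libraries. Aire itself had 200697 and 175884 counts in the libraries labelled Aire-KO, against 87229 and 36597 in those labelled WT. Counts over the whole gene do not show whether a deleted part is absent, so this gene does not check the labels and every direction below is that of the labels. All 13 mTEC markers were detected, with summed levels of 24476 and 32116 counts per 1000000 (CPM) in Aire-KO and 18897 and 28873 CPM in WT. Cd74, H2-Aa and H2-Ab1 held the largest parts of that sum, while Epcam had 284 and 306.5 CPM in Aire-KO and 495.7 and 379.5 CPM in WT. The sums for other cells were below the mTEC sum: 10 thymocyte genes summed to 25.4 and 36.9 CPM in Aire-KO, against 37.7 and 61.9 CPM in WT, and 3 red cell genes to 14.5 and 192 CPM in Aire-KO, against 36.6 and 460.1 CPM in WT. Hba-a1 and Hba-a2 had the same counts in each library, so the red cell sum takes those counts more than once. The 7 genes of cortical thymic epithelium summed to 670 and 590 CPM in Aire-KO, against 540 and 593 CPM in WT. The 8 fibroblast genes summed to 272 and 262 CPM in Aire-KO and to 155 and 117 CPM in WT, and 3 of them passed the test as higher in Aire-KO. Lower in Aire-KO (adjusted p under 0.05, edgeR) were 2 of 9 dendritic cell and macrophage genes (Itgam and Adgre1) and, among markers of mTEC subtypes, 2 of 8 keratinocyte-like, 2 of 8 microfold-like, 3 of 8 enterohepatic-like, 2 of 5 ciliated-like, 2 of 7 neuroendocrine-like and 1 of 6 muscle-like genes. Over all genes, the same fit with 1 RefSeq ID per gene called 1295 of 20560 (6.3%) lower and 55 higher in Aire-KO. The keratinocyte-like genes summed to 252 and 208 CPM in Aire-KO, against 678 and 1446 CPM in WT, the microfold-like genes to 771 and 922 CPM in Aire-KO, against 1128 and 1788 CPM in WT, and the enterohepatic-like genes to 385 and 483 CPM in Aire-KO, against 628 and 1320 CPM in WT. The dendritic cell and macrophage genes summed to 313 and 357 CPM in Aire-KO, against 366 and 616 CPM in WT. The neuroendocrine-like sum ran the other way, with 372 and 335 CPM in Aire-KO, against 294 and 265 CPM in WT. That direction came from Insm1 alone, with 337.6 and 296.3 CPM in Aire-KO, against 195.5 and 141.8 CPM in WT. The estimates of Chga, Chgb, Neurod1, Scg2, Stmn2 and Foxa2, the rest of that list, were all lower in Aire-KO. No member gene is in any of the marker lists, and the part of these cells in the members' levels was not tested. In pooled cells, fewer cells of a kind and less RNA per cell cannot be told apart.

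The members and their pA are best seen from their sequences, because the rule read counts alone. The proximal and distal ends of 40 member IDs (30 genes) could be placed on mm9 by matching last-exon lengths to GENCODE vM1. The 30 bases that end at each site were read on the transcript's strand and searched for AATAAA and then ATTAAA. Shown first are 6 members with no such hexamer before the proximal pA and with one before the distal end, and a member that has it at both. They were picked for these patterns. Meltf, Slc17a6, Ncald and Septin3, not shown, had no such hexamer at either site. The capitals mark the hexamer.

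Lynx1 proximal (mm9 chr15:74580723-74580752, minus strand): tatacagggagccaagccgagtgctaggtg
Lynx1 distal (mm9 chr15:74578286-74578315, minus strand): cccattggatgAATAAAcaagcgaaggaca
Wnt7b proximal (mm9 chr15:85366841-85366870, minus strand): ggtgatgggaggctgcacccccttttcagt
Wnt7b distal (mm9 chr15:85365869-85365898, minus strand): agccccAATAAAagctggaatcagaaaagc
Cplx1 proximal (mm9 chr5:108948493-108948522, minus strand): gcaatagatttggagcgggtggtctcagac
Cplx1 distal (mm9 chr5:108947573-108947602, minus strand): acagccAATAAAcagtgatttcacaccgtg
Rgs8 proximal (mm9 chr1:155541054-155541083, plus strand): tatgatgggaagactgagaacctagcctga
Rgs8 distal (mm9 chr1:155544768-155544797, plus strand): gaacatAATAAAcaaaacctgaacaagctg
Gpd1 proximal (mm9 chr15:99554196-99554225, plus strand): ttgctaacaaaatacaaagctctcaaacaa
Gpd1 distal (mm9 chr15:99555407-99555436, plus strand): tgtctacccAATAAAgtgtggtttttccag
Mal proximal (mm9 chr2:127460569-127460598, minus strand): aaaacaaacacaaaaacaaaaggaagccat
Mal distal (mm9 chr2:127458962-127458991, minus strand): ttttaatcATTAAAagaaactttcatacaa
Vnn1 proximal (mm9 chr10:23624606-23624635, plus strand): ggaaaattAATAAAactttgagcattggaa
Vnn1 distal (mm9 chr10:23625120-23625149, plus strand): gaggcAATAAAtttctgttttaaatggtcc

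For contrast, 2 Aire-induced genes that lack the d3'UTR in WT are shown: Ccl9, a chemokine gene, and Plet1, a placenta-expressed surface protein gene. Both were picked by name, and both have AATAAA before the proximal pA and no hexamer before the distal end. Not all lacking IDs share this. Of 142 placed, 39 had no hexamer before the proximal pA, and 46.5% had one before the distal end.

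Ccl9 proximal (mm9 chr11:83388167-83388196, minus strand): cagtaagccactAATAAAgtgcatctatgc
Ccl9 distal (mm9 chr11:83386421-83386450, minus strand): tgtctggaatagtaaaattgaaccttggtc
Plet1 proximal (mm9 chr9:50313211-50313240, plus strand): tctaagtcaAATAAAcaatatattgaacaa
Plet1 distal (mm9 chr9:50313715-50313744, plus strand): tctgaccagctcacagtgtgcataaggtcc

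Before the proximal pA, 5 of 40 placed member IDs (12.5%) had AATAAA and none had ATTAAA. Those 5 were Vnn1, Tectb, Ncan, Mettl7b and Kcnf1, and the 5 were of 30 placed genes. Among the lacking IDs, 72.5% of 142 placed had AATAAA or ATTAAA there, and among all 5671 placed d3'UTRs the share was 50.7%. Aire-neutral IDs, whose counts were within 2-fold between genotypes in both experiments, are a second comparison: those with a WT ratio above 0.75 in both experiments had a proximal hexamer in 28.5% of 999. At the distal end the order was turned round, with a hexamer in 82.5% of the member IDs, 46.5% of the lacking IDs, 65.8% of all placed IDs and 76.1% of the Aire-neutral retaining IDs. These shares are a description of the letters in a 30-base window and carry no test. Several RefSeq IDs of a gene share the same sites, and with 1 ID per gene the proximal share was 16.7% in members, 69.7% in lacking genes and 51.5% in all.

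**Figure D1:**
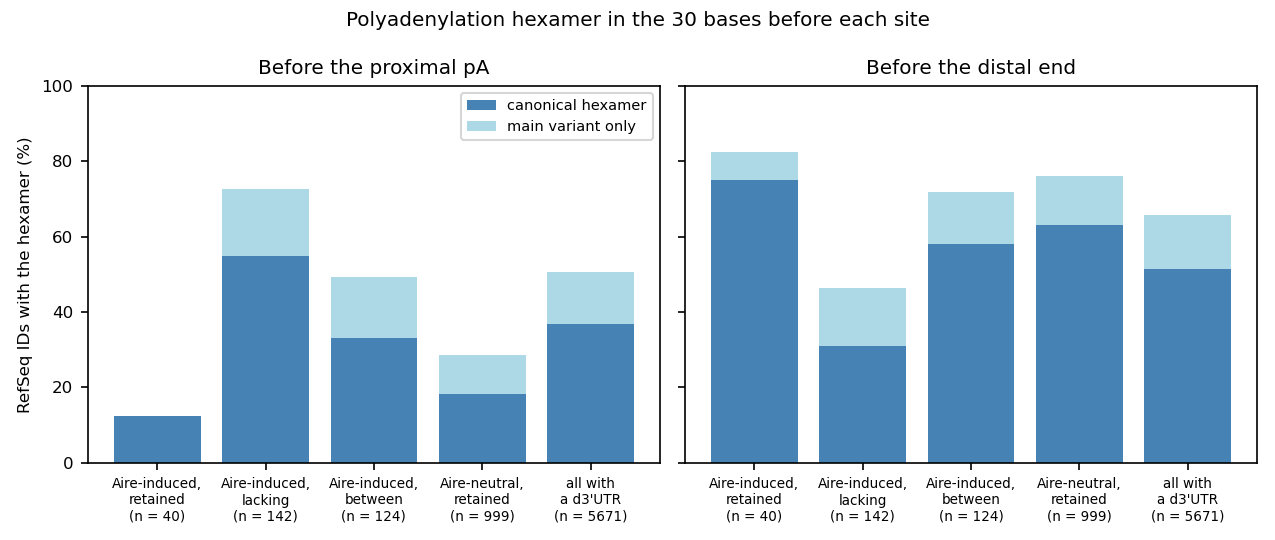
Share of placed RefSeq IDs (y axis, %) with a polyadenylation hexamer in the 30 bases before the proximal pA (left) and before the distal end (right), by group of IDs, where the dark bars are AATAAA and the light bars ATTAAA without AATAAA. The Aire-induced IDs that retained the d3'UTR had the hexamer in 12.5% at the proximal pA and in 82.5% at the distal end, against 72.5% and 46.5% in the Aire-induced IDs that lacked it.

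The median d3'UTR of the members was 1143 bp (quartiles 799.5 and 1968 bp, range 264 to 6841 bp), against 240.0 bp in the lacking IDs, 863 bp over all 8721 d3'UTRs and 1275 bp in the Aire-neutral IDs that retained the d3'UTR in WT. None was shorter than 100 bp, whereas 33.2% of lacking IDs, 10.3% of all and 1.33% of the Aire-neutral retaining IDs were. A long d3'UTR was thus shared with the Aire-neutral IDs of the same ratio. A short region loses more of its possible reads, since only reads of 50 bp that lay wholly inside a region were counted, which leaves a short d3'UTR few positions for a read. The median upstream part was 931 bp in members, 597 bp in lacking IDs, 618 bp in all and 554.5 bp in the Aire-neutral retaining IDs. The longest d3'UTR, 6841 bp, belonged to Miat, a long noncoding RNA, and the shortest, 264 bp, to Fam181b. The member genes lay on 18 chromosomes, with 6 of 45 placed genes on chromosome 15 (Lynx1, Wnt7b, Gpr20, Ncald, Gpd1 and Septin3). The d3'UTR overlapped an exon of another gene on the opposite strand in Gpd1 (Gm16537), Mip (Gm17292), Sprn (Mtg1) and Mettl7b (Itga7), 10% of the placed IDs against 9.47% of all. Because the libraries are not stranded, the reads of such a pair cannot be told apart.

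The members' levels in WT against Aire-KO follow from the rule and are given as a description. Over the whole gene, all 58 IDs were lower in Aire-KO, with a median log2 difference (Aire-KO over WT) of -2.94 beside a median of 0.03 over all 26790 IDs tested. In that edgeR fit, 36 of the 58 had an adjusted p under 0.05, whereas 5.58% of all IDs were lower by that threshold, and nothing is read from the members' count because the same contrast chose them. With the experiment as a block, the member count was 56, beside 16.5% of all IDs lower. The WT over Aire-KO fold had a median of 7.71 in the first and 7.68 in the replicate experiment. The lacking IDs had medians of 9.06 and 10.4.

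Gm2a and Anxa8 had the most WT reads in the upstream part among members. Gm2a, the lysosomal cofactor that presents gangliosides for degradation, had 9.18 and 11.7 CPM in Aire-KO, against 60.9 and 90.4 CPM in WT. Anxa8, an annexin that binds phospholipids with calcium, had 5.93 and 10.8 CPM in Aire-KO, against 37.4 and 86.4 CPM in WT. Both WT libraries were above both Aire-KO libraries for these genes, as they were in all 46 member genes. Meltf, which encodes the iron-binding melanotransferrin, had 3.93 and 2.05 CPM in Aire-KO, against 22.0 and 23.4 CPM in WT. Wnt7b, a secreted Wnt ligand, had 1.83 and 2.43 CPM in Aire-KO, against 10.01 and 17.4 CPM in WT. Fibcd1, a chitin-binding receptor, had 0.663 and 0.766 CPM in Aire-KO, against 6.45 and 10.4 CPM in WT. NR_001592, which the annotation tables used here do not name, had 2.63 and 5.32 CPM in Aire-KO, against 29.6 and 89.8 CPM in WT. Gm2a, Anxa8, Meltf, Wnt7b and Fibcd1 had at least 90 reads in the upstream part in each Aire-KO library.

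Lynx1, a GPI-anchored modulator of nicotinic acetylcholine receptors, had 2.98 and 4.38 CPM in Aire-KO, against 20.4 and 52.5 CPM in WT. Mal, a proteolipid of myelin and of apical transport, had 2.07 and 2.14 CPM in Aire-KO, against 21.6 and 17.9 CPM in WT. Cplx1, a complexin that binds the SNARE complex at synapses, had 0.337 and 0.379 CPM in Aire-KO, against 6.11 and 5.92 CPM in WT. The 2 Aire-KO values lay close together for Mal and for Cplx1, whereas Lynx1 varied more between the WT libraries than between the Aire-KO libraries. Rph3a, a rabphilin that binds Rab3 on synaptic vesicles, had 0.148 and 0.0494 CPM in Aire-KO, against 7.97 and 7.72 CPM in WT. Other members, given without values here, were Slc17a6 (a vesicular glutamate transporter), Ncan (neurocan of the brain matrix), Opcml (a neural adhesion protein), Rgs8 (a regulator of G protein signalling), Ncald (a neuronal calcium sensor) and Aqp4 (the water channel of astrocytes).

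Regulators of transcription were Foxi1, needed for ionocytes, Trp73, a relative of p53, Lhx3 of the pituitary, Dmrt1 of the testis and Klf17. Foxi1 had 0.266 and 0.704 CPM in Aire-KO, against 12.4 and 13.2 CPM in WT. Trp73 had 0.367 and 0.432 CPM in Aire-KO, against 6.96 and 3.75 CPM in WT.

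Members at the bottom of the scale in Aire-KO cannot be followed there. In the replicate experiment 7 genes had no count in Aire-KO, and a fold is then a lower bound set against 3 counts per library. Mip, the main water channel of lens fibres, had 4 and 0 counts in Aire-KO, against 1030 and 701 in WT, so that it was at least 452-fold higher in WT in the replicate experiment. Tectb, a protein of the tectorial membrane of the inner ear, had 8 and 0 counts in Aire-KO, against 1269 and 619 in WT (at least 399-fold). Vip, the precursor of vasoactive intestinal peptide, had 7 and 0 counts in Aire-KO, against 1182 and 551 in WT (at least 355-fold). Others in the replicate experiment were Klf17 (at least 195-fold), Sprn (at least 98.0-fold) and Tdpoz1 (at least 104-fold). These bounds hold for the replicate experiment only. In the first experiment, where each had counts in Aire-KO, the folds were lower. They were 179.7 for Mip, 110.7 for Tectb, 117.8 for Vip, 41.4 for Klf17, 28.3 for Sprn and 46.3 for Tdpoz1. Tdpoz1 belongs to a family of near-identical genes, and its counts are uncertain for that reason. By the lower of the 2 folds, the smallest were those of Dmrt1 (6.68 and 3.01), Sorbs2, an adaptor protein of the cytoskeleton (3.08 and 3.02), Tspan12 (3.80 and 3.24), Gpd1 (3.33 and 9.35) and Cd55, a regulator of complement (3.42 and 3.84).

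**Figure D2:**
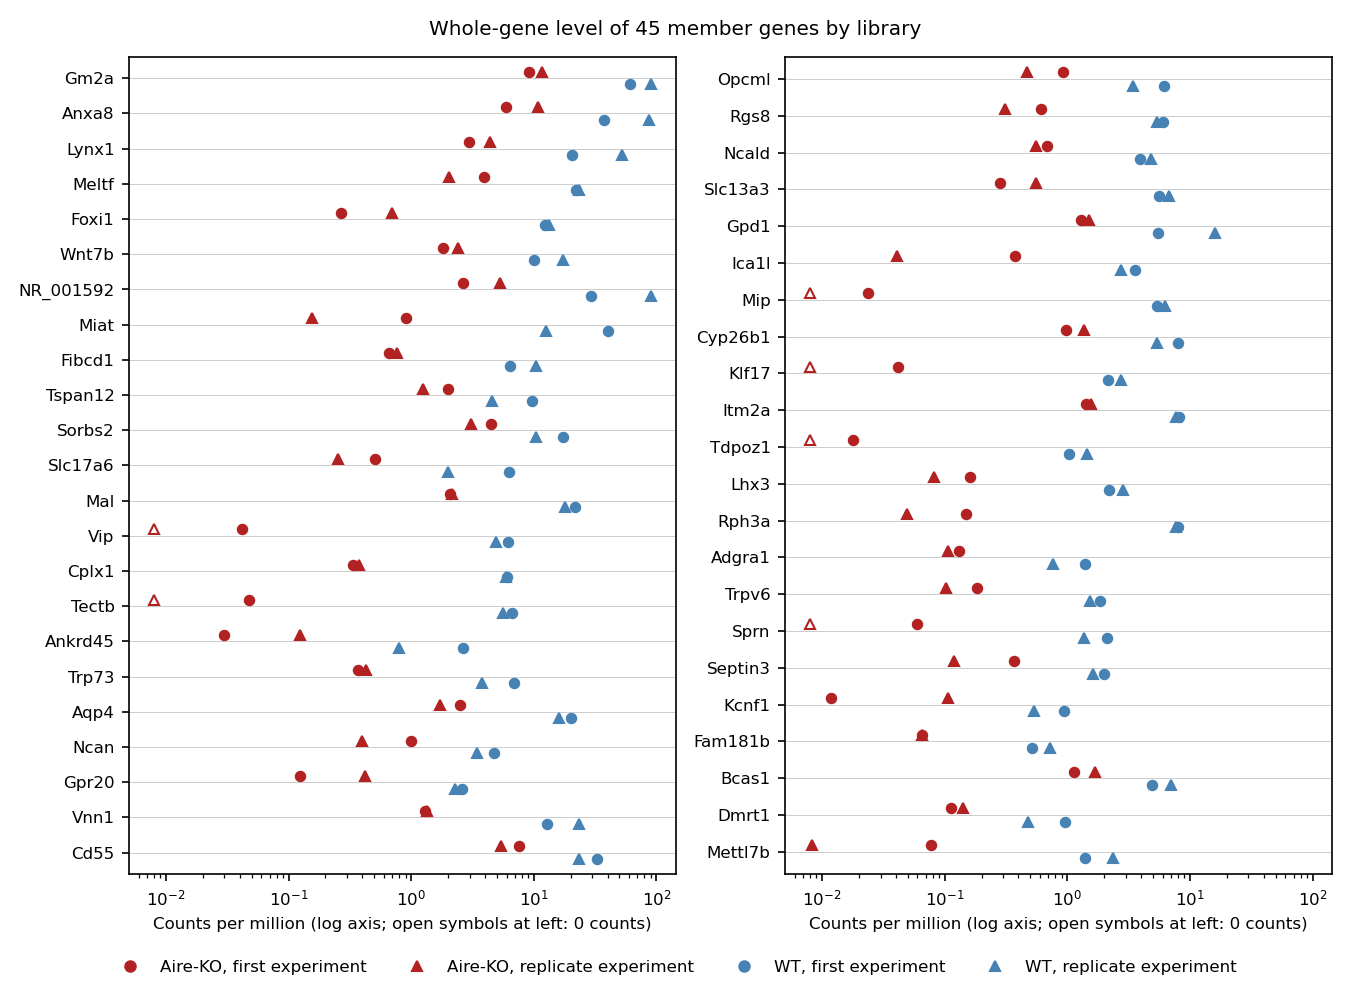
Whole-gene level of 45 member genes in each library (x axis, counts per 1000000, log scale), with Aire-KO in red above WT in blue, circles for the first and triangles for the replicate experiment, and open symbols where the count was 0. In every gene shown both WT symbols lie to the right of both Aire-KO symbols, which the rule required within each experiment, as for Gm2a at 60.9 and 90.4 CPM in WT.

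In WT, where the ratios chose the members, the median d3'UTR ratio was 1.10 in the first and 1.12 in the replicate experiment. The highest mean ratio was that of Miat (2.05 and 2.01), followed by Septin3, a septin of neurons (1.63 and 2.37), Slc17a6 (1.15 and 2.31), Fam181b (1.19 and 2.26) and Opcml (1.82 and 1.60). The lowest were those of Tspan12, a tetraspanin that acts in Norrin signalling (0.878 and 0.793), Trp73 (0.862 and 0.822), Lynx1 (0.919 and 0.876), Tdpoz1 (1.04 and 0.772) and Mal (0.899 and 0.933). In Septin3, Slc17a6 and Fam181b the replicate library gave the higher value.

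The thresholds cut through a continuum. Just inside the ratio threshold were Aqp4, with a lower WT ratio of 0.755, Fibcd1 with 0.767 and Tdpoz1 with 0.772. Just outside it were Crx, a photoreceptor transcription factor, with 0.747 in 2 RefSeq IDs, and Pyroxd2 with 0.726. Just inside the fold threshold were Dmrt1 with a lower fold of 3.01 and the 2 IDs of Sorbs2 with 3.02 and 3.03. Just outside it were Rnd3, a small GTPase, with 2.82, Perp with 2.79 and Ffar2 with 2.70. On the reads threshold Dmrt1 had 20, Kcnf1 24 and Adgra1 26 in the WT library with fewer, while Elmod1 had 19, an ID without a matched symbol (NM_025357) 15 and Galr1 14.

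The d3'UTR ratio in Aire-KO was not used by the rule. It shows whether the same genes, at their lower level without Aire, carried the d3'UTR too. A ratio is given for an Aire-KO library where the upstream part had at least 20 reads, which held for 30 of 58 IDs (22 genes) in the first experiment and 37 (26 genes) in the replicate experiment. The remaining 28 and 21 IDs had fewer, among them 4 and 13 with none.

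The members' ratios in Aire-KO had medians near 1, with a wider spread than those of the Aire-neutral IDs. The median was 1.04 (quartiles 0.844 and 1.44) in the first and 0.982 (quartiles 0.666 and 1.48) in the replicate experiment. For comparison, lacking IDs had medians of 0.0509 and 0, and Aire-neutral IDs chosen by the same WT ratio had medians of 0.977 (quartiles 0.846 and 1.16) and 0.993 (quartiles 0.815 and 1.24). Over 0.75 were 25 of 30 member IDs (83.3%) in the first experiment and 22 of 37 (59.5%) in the replicate experiment. In the lacking group 2 of 92 and 2 of 102 IDs were over 0.75, and in the Aire-neutral group 89.0% and 84.5%. Under 0.25 was no member in the first experiment and 4 IDs in the replicate experiment, namely the 3 IDs of Trp73 and Ankrd45. That was 10.8% of the 37 member IDs (26 genes) with a ratio there, against 0.0668% of the Aire-neutral group. The 3 IDs of Trp73 have the same reads and are not separate cases. The difference between these groups was not tested, and the upstream reads behind a ratio were fewer in members (median 28 over all 58 IDs in the replicate Aire-KO library, against 1391). Summed over 1 ID per gene, members had 2764 and 4466 upstream reads in Aire-KO, and 4484 and 6616 d3'UTR reads, which was 1.05 and 1.02 times the number that the upstream density would give. The same sums were 1.21 and 1.06 times that number in WT. For lacking genes the figures were 0.135 and 0.0673 in Aire-KO, against 0.125 and 0.0653 in WT.

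**Figure D3:**
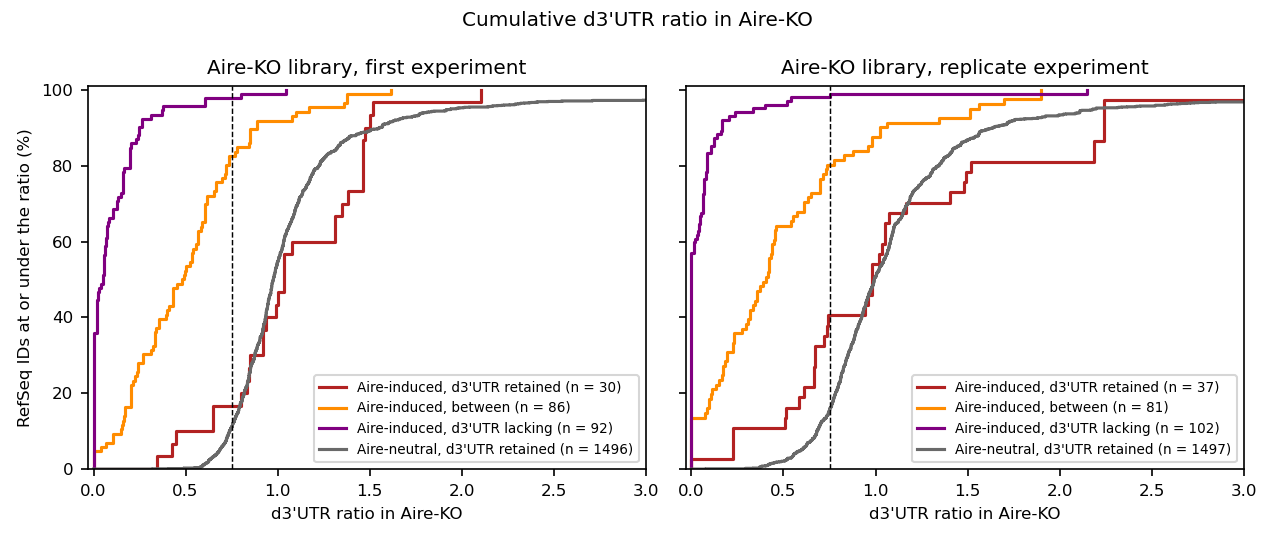
Cumulative share of RefSeq IDs (y axis, %) at or under each d3'UTR ratio (x axis) in the Aire-KO library of the first (left) and the replicate experiment (right), for IDs with at least 20 upstream reads in that library, with a dashed line at 0.75 and the axis ending at a ratio of 3. The members (red, medians 1.04 and 0.982) had medians close to those of the Aire-neutral IDs that retained the d3'UTR in WT (grey, 0.977 and 0.993) and above those of the lacking IDs (purple, 0.0509 and 0), but in the replicate experiment 59.5% of members were over 0.75, against 84.5% of the Aire-neutral IDs.

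A region test within the Aire-KO libraries compared the d3'UTR with the upstream part of each ID (edgeR quasi-likelihood, region lengths as offsets, the library as a block), fitted over 8305 IDs with at least 10 reads in the regions together in each library. It was run on 44 of 58 member IDs (32 genes). None of the 44 had a lower or a higher d3'UTR density at adjusted p under 0.05, and none at an unadjusted p under 0.05, whereas 58.7% of all IDs were lower and 2.01% higher. Of the 1502 Aire-neutral IDs with a WT ratio above 0.75 in both experiments, 3% were lower and 9.45% higher. Few lower calls were thus shared with the Aire-neutral IDs of the same WT ratio. With DESeq2 in place of edgeR the member count was also 0, beside 59.0% of all IDs lower. With regions of at least 100 bp the member count was 0 too, beside 56.8% of 7448 IDs lower. The median log2 difference (d3'UTR over upstream part) was 0.01 in members (quartiles -0.41 and 0.60, range -1.51 to 1.54), -0.01 in those Aire-neutral IDs, -4.45 in lacking IDs and -1.38 over all. Of 114 lacking IDs tested, 53 (46.5%) were lower. The members' estimates were broad, with a median SE of 0.599 beside 0.252 over all IDs, so that a call that misses the threshold does not show even coverage. The 14 IDs left untested are those with too few reads, and they include Vip, Tectb, Mip and Klf17.

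The well-covered members had the narrowest estimates. Gm2a had ratios of 1.08 and 1.04 in Aire-KO, against 0.934 and 1.13 in WT, from 892 and 1718 upstream reads in Aire-KO. Its log2 difference in the region test was 0.08 ± 0.20 (SE, adjusted p = 0.751, edgeR). The ranges of the genotypes overlapped. Anxa8 had ratios of 0.842 and 1.07 in Aire-KO, against 1.16 and 1.07 in WT, and Lynx1 had 0.851 and 0.961 in Aire-KO, against 0.919 and 0.876 in WT. Their log2 differences were -0.07 ± 0.25 and -0.14 ± 0.27 (SE). Neither gene separated by genotype beyond the spread of its libraries in these values. Wnt7b, with 159 and 308 upstream reads in Aire-KO, had ratios of 1.04 and 0.982 there, against 1.17 and 1.31 in WT.

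Meltf and Fibcd1 show how far the Aire-KO libraries could disagree. Meltf had 0.800 and 1.48 in Aire-KO, against 0.916 and 0.943 in WT. Fibcd1 had 0.345 and 1.41 in Aire-KO, against 1.13 and 0.767 in WT, and the exact 95% counting intervals of its Aire-KO ratios, 0.160 to 0.663 and 0.983 to 1.99, did not meet. Reads from PCR are not independent molecules, so these intervals cover counting error only. Cplx1 had 3.29 and 0.515 in Aire-KO, from 11 and 54 upstream reads. Over the 18 genes with at least 20 upstream reads in each library, the ratios of the 2 Aire-KO libraries correlated weakly (Pearson's r 0.156, Spearman's correlation 0.261, across genes and without a test).

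The region test used the Aire-KO libraries alone, so its p-values do not compare the genotypes, and WT ratios stand beside it as a description. Within Aire-KO, a d3'UTR less dense than the upstream part led, by the order of p, with Ncan, Mal, Trp73, Tspan12, Sorbs2 and Foxi1. None was past the threshold. Mal had 0.647 and 0.666 in Aire-KO, against 0.899 and 0.933 in WT, and its region test gave -0.61 ± 0.36 (SE, adjusted p = 0.225, edgeR). Both Aire-KO values lay under both WT values. Trp73 had 0.707 and 0.227 in Aire-KO, against 0.862 and 0.822 in WT, and its region test gave -1.36 ± 0.85 (SE, adjusted p = 0.241, edgeR). Its lower value came from 68 upstream and 30 d3'UTR reads. Ncan had 0.427 and 0.240 in Aire-KO, against 1.10 and 1.05 in WT, with 16 upstream reads behind the lower value and a log2 difference of -1.51 ± 0.87 (SE, adjusted p = 0.214, edgeR). Tspan12 had 0.835 and 0.508 in Aire-KO, against 0.878 and 0.793 in WT. Sorbs2 had 0.921 and 0.673 in Aire-KO, against 1.16 and 0.834 in WT. Foxi1 had 0.914 and 0.582 in Aire-KO, against 1.20 and 1.05 in WT, and its first value rests on 17 upstream reads.

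Within Aire-KO, a d3'UTR denser than the upstream part led with Cyp26b1, the RefSeq ID NR_001592, Slc17a6, Ncald, Miat and Vnn1. Again none was past the threshold, and the order says nothing of the difference to WT. Cyp26b1, which degrades retinoic acid, had 2.74 and 2.19 in Aire-KO, against 1.44 and 1.17 in WT, from 10 and 30 upstream reads in Aire-KO, and its region test gave 1.27 ± 0.51 (SE, adjusted p = 0.106, edgeR). NR_001592 had 1.503 and 1.52 in Aire-KO, against 1.51 and 1.08 in WT, with a log2 difference of 0.60 ± 0.26 (SE, adjusted p = 0.127, edgeR). Slc17a6 had 2.10 and 2.45 in Aire-KO, against 1.15 and 2.31 in WT. Ncald had 1.46 and 2.24 in Aire-KO, against 0.910 and 1.18 in WT, and both Aire-KO values lay above both WT values. Miat had 1.35 in the first Aire-KO library, against 2.05 and 2.01 in WT, and the other Aire-KO library held 38 reads in its d3'UTR and none upstream. Vnn1, a pantetheinase, had 0.993 and 3.08 in Aire-KO, against 1.59 and 1.37 in WT, so that a single library carried its difference.

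**Figure D4:**
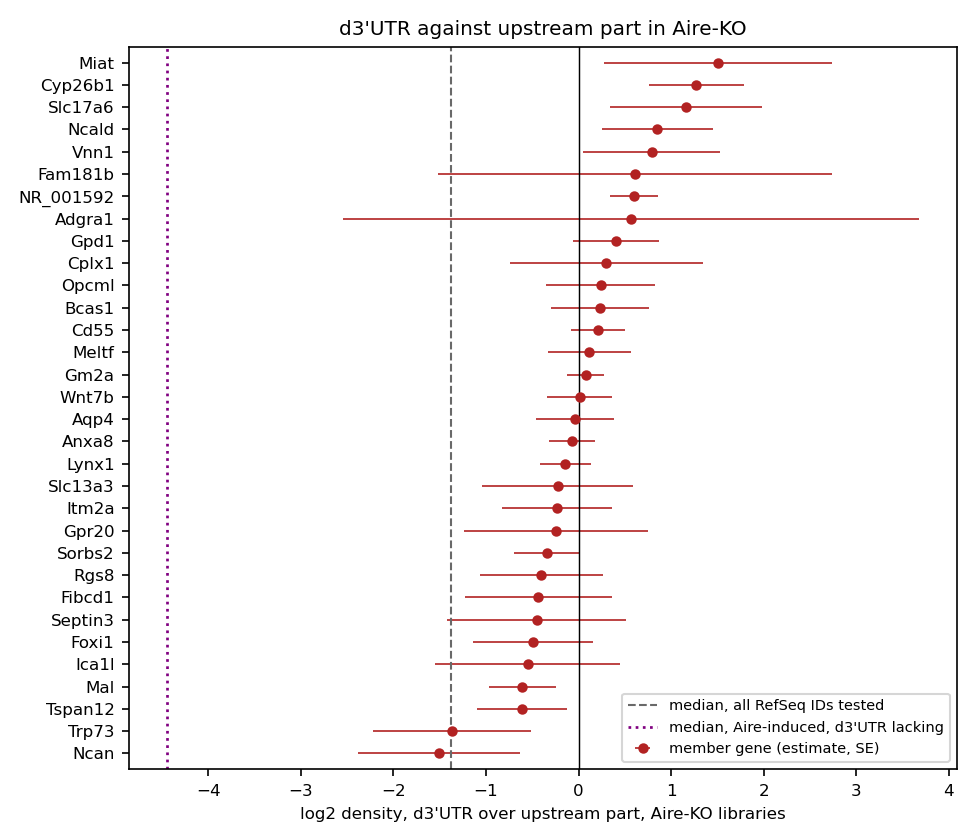
Region test in the Aire-KO libraries for the 32 member genes tested, with the log2 density of the d3'UTR over the upstream part (x axis) as points and the SE as bars, a dashed line at the median of all IDs (-1.38) and a dotted line at the median of the lacking IDs (-4.45). Members spread on either side of 0, from Ncan (-1.51) to Miat (1.51), and none passed the threshold.

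Setting the genotypes side by side, 25 member IDs (18 genes) had at least 20 upstream reads in both Aire-KO libraries. Of these, 16 were over 0.75 in both, 7 in a single library, and 2, the IDs of Mal, in neither. Both Aire-KO ratios were below both WT ratios in 9 IDs and above them in 4. In the 1495 Aire-neutral IDs chosen by the same WT ratio, these counts were 513 and 62. IDs of a gene share their reads and are not separate cases. The 4 member IDs above were all of a single gene, Ncald, and the 9 below were of Wnt7b, Mal, Rgs8, Opcml, Cd55 and Itm2a. The WT ratios chose all of these IDs and a difference between genotypes was not tested, so that the counts are a description. Among the 18 genes the largest differences downwards were in Rgs8 (0.936 and 0.609 in Aire-KO, against 1.10 and 1.53 in WT), Opcml (1.47 and 0.945 in Aire-KO, against 1.82 and 1.60 in WT), Cd55 (1.31 and 1.02 in Aire-KO, against 1.69 and 1.36 in WT) and Mal. The largest upwards were in Ncald, Vnn1, Gpd1 (1.52 and 1.16 in Aire-KO, against 1.24 and 0.930 in WT) and NR_001592. Gpd1 encodes the glycerol-3-phosphate dehydrogenase of the cytosol.

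**Figure D5:**
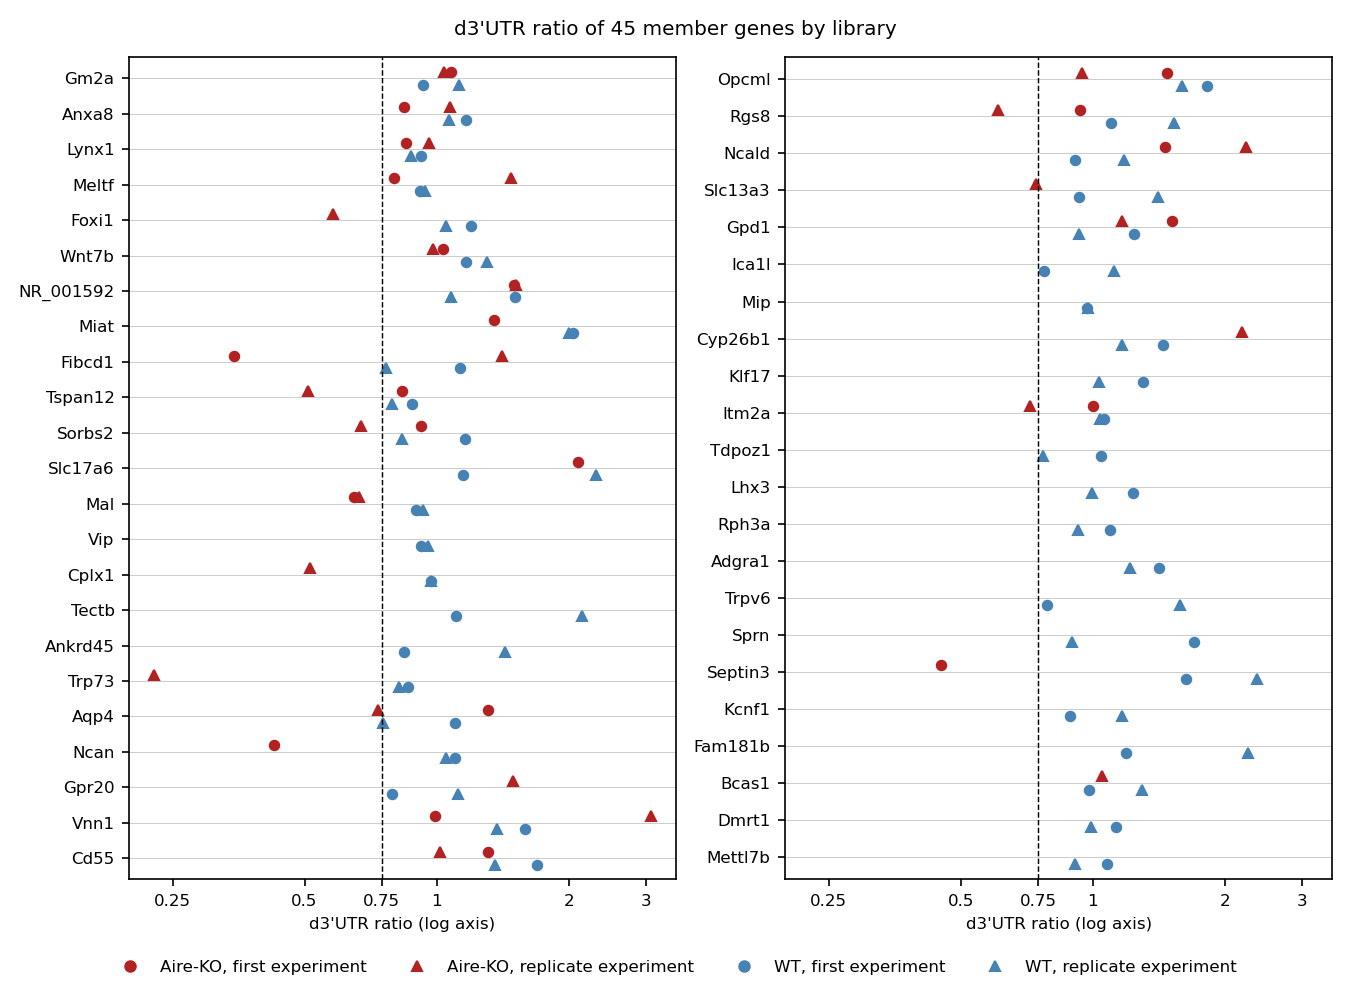
d3'UTR ratio of 45 member genes in each library (x axis, log scale, dashed line at 0.75), with Aire-KO in red above WT in blue, circles for the first and triangles for the replicate experiment, drawn where the upstream part had at least 20 reads, except Ankrd45 in the replicate Aire-KO library, whose ratio of 0 has no place on a log axis. All WT symbols lie right of the line by the rule, while Aire-KO symbols fall on both sides, as in Mal at 0.647 and 0.666, and are missing for genes with too few reads.

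The coding exons before the last give a second denominator for the d3'UTR, which the rule did not use. The numerator, the d3'UTR density, is the one that the rule read in WT. The WT values below therefore follow in part from the choice of the groups. The d3'UTR density over the coding exon density of members had medians of 1.49 and 1.20 in Aire-KO (25 and 30 IDs with at least 20 coding exon reads), against 1.83 and 1.40 in WT (50 and 46 IDs). Lacking IDs had medians of 0.0163 and 0 in Aire-KO, against 0.0582 and 0 in WT. Aire-neutral IDs with a retained d3'UTR had 1.31 and 1.28 in Aire-KO, against 1.83 and 1.33 in WT. In each group that retained the d3'UTR its median density was thus above that of the coding exons, in all 4 libraries. Gm2a had 1.77 and 2.08 in Aire-KO, against 2.05 and 1.84 in WT, and Anxa8 had 1.79 and 2.02 in Aire-KO, against 2.21 and 2.27 in WT. Itm2a, an integral membrane protein, was at the low end with 0.887 and 0.397 in Aire-KO, against 0.941 and 0.857 in WT.

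The genes that make 3' ends were looked up as the pathway around these transcripts. Of a list of 27 factors of cleavage, polyadenylation and their partners, 26 were found and tested, and none differed between genotypes at adjusted p under 0.05 (edgeR), nor at an unadjusted p under 0.05, beside 5.58% of all IDs lower and 0.258% higher in Aire-KO. DESeq2 called none after adjustment either, and 1 at an unadjusted p under 0.05. With the experiment as a block, edgeR called 4 of the 26 higher in Aire-KO, Pabpn1 (adjusted p = 0.00858), Ddx17 (0.0166), Fip1l1 (0.0456) and Rbbp6 (0.0475), with 10 in either direction at an unadjusted p under 0.05, beside 10.4% of all IDs higher after adjustment. The median log2 difference (Aire-KO over WT) of the list was 0.44, against 0.03 over all genes. Clp1, a subunit of cleavage factor II, had 31.4 and 22.4 CPM in Aire-KO, against 38.8 and 22.5 CPM in WT. Pabpn1, the nuclear poly(A)-binding protein, had 112.0 and 117.0 CPM in Aire-KO, against 93.1 and 64.9 CPM in WT, with a log2 difference of 0.87 ± 0.38 (SE, adjusted p = 0.254, edgeR). Nudt21, the small subunit of cleavage factor I, had 7.69 and 13.1 CPM in Aire-KO, against 10.9 and 15.2 CPM in WT. The first and the replicate experiment differed more than the genotypes did for Clp1 and Nudt21.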

How the data were processed

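Poly(A) RNA of 4 mTEChi pools was sequenced without strand (2 × 100 bases). The authors joined and trimmed the reads to 50 bp, applied the CASAVA filter, aligned to mm9 (Bowtie 1.0.0) and counted with bedtools the reads wholly inside RefSeq exons and features, with proximal pA from PolyA_DB. The deposited values are raw counts per RefSeq ID and per feature. Feature lengths were deposited beside the counts.

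From these, WT over Aire-KO folds used median-of-ratios size factors within an experiment. Symbols were matched for 29352 of 30794 IDs (95.3%). Tests used edgeR 4.0.16 (quasi-likelihood, Benjamini-Hochberg adjustment, threshold 0.05, TMM and filterByExpr for genotypes) in R 4.3.3, and DESeq2 1.42.0 as an alternative; scripts were tested on simulated data. RefSeq IDs of a gene share reads. CPM are counts per 1000000 of the summed counts. The p-values of the genotype fit measure the spread of 2 libraries a genotype. Those of the region test rest on 2 regions in each of the 2 Aire-KO libraries, and no WT library enters it. pA were placed on mm9 within 2 bp through GENCODE vM1.

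The members, gene lists and tests were chosen with earlier results of these data known. The member genes described in full were those that lead by WT reads, ratio, fold, test order or difference between genotypes. Alternatives covered normalization, filters, lengths, thresholds, pairing, IDs per gene and leaving out libraries. One member gene is not reported by name here.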

Additional observations from a re-analysis of the deposited data

Results flagged for a closer look

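Rgs8, a regulator of G protein signalling, had d3'UTR ratios of 0.936 and 0.609 in Aire-KO, below 1 in both libraries, against 1.10 and 1.53 in WT, above 1 in both. The mean differed by -0.54 (Aire-KO minus WT). It was the only 1 of 18 member genes with at least 20 upstream reads in all 4 libraries that lay on opposite sides of 1 by genotype. The difference was not tested, the Aire-KO values rest on 23 and 25 upstream reads, and the WT ratios had chosen the gene.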

How the results depend on the processing

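The number of members (58) was 38 with at least 100 upstream WT reads, 114 and 22 with a ratio above 0.5 and above 1, and 103 and 34 with a fold of at least 2 and 5. With a single experiment it was between 117 and 143. The median ratio of members in Aire-KO was 0.886 in the first experiment with at least 50 upstream reads and 0.997 with 1 RefSeq ID per gene, and 0.934 in the replicate experiment with lengths less 49 bp. The median of the region test in members was -0.15 with lengths less 49 bp and between -0.0031 and 0.052 in single Aire-KO libraries. No member was called in any version of that test, while the number of all IDs with a higher d3'UTR was 59 with no replicate block (the library as a block left out), where 3417 were lower. The log2 difference of Vnn1 was -0.016 in the first Aire-KO library alone and 1.60 in the other. Against coding exons with 5'UTR features included, the medians in Aire-KO were 1.96 and 1.73. With 1 RefSeq ID per gene the median d3'UTR was 1025 bp and the upstream part 892 bp. Between genotypes, 1495 IDs were lower and 69 higher in Aire-KO. DESeq2 gave 3438 and 603, library sizes alone 2470 lower, and no filter 143 higher. Leaving out single libraries gave 1524 to 3664 lower and 66 to 521 higher, the most lower without Aire-KO replicate 1 and the most higher without Aire-KO replicate 2. With a replicate block 4428 were lower and 2777 higher, and 4 of the 3' end factors were higher (Fip1l1, Rbbp6, Pabpn1 and Ddx17). The deviations of same-numbered libraries correlated at 0.535, and with 2 pairs this does not show that the numbers pair the samples. Causes were not tested. Depth limits the members most in Aire-KO, where 28 and 21 of 58 IDs had under 20 upstream reads.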
